A study of Danio rerio with 5 samples.

Results

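Chaperones are proteins that bind unfolded or newly made proteins and help them fold, assemble or avoid aggregation. HSP70 proteins hold and release clients in an ATP cycle that J proteins start and nucleotide exchange factors reset, HSP90 proteins finish clients such as kinases and steroid receptors, and chaperonins enclose clients in a ring. In animal cells a few chaperone genes are strongly induced by heat shock factor when unfolded proteins accumulate, whereas most are transcribed at all times. The chaperone genes described here were the array's genes with a single symbol that begins with hsp, hsc70, dnaj, cct, ahsa1, stip1, bag, st13 or unc45, without the endoplasmic reticulum chaperones hspa5 and hsp90b1. The rule found 71 probe sets for 63 genes, out of 15502 probe sets for 8793 named genes. Of the 63 genes, 8 had 2 probe sets, and the one with the higher mean over all arrays stood for the gene. The label of cytosolic and mitochondrial chaperones did not hold for every member. At least dnajb11, dnajc1, dnajc3a, dnajc3b and dnajc10 encode J proteins of the endoplasmic reticulum.

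AB strain zebrafish were sampled as whole larvae 7 days after fertilization, in pools of 20, and the RNA of each pool was hybridised to an Affymetrix array. The groups were unirradiated control larvae (1 array), larvae given 12 Gy of protons (1 array) and larvae given 15 Gy (3 arrays, listed below as replicates 1, 2 and 3). Protons of 8 MeV/u reached the embryos at 24 h at 7.5 Gy/min, with doses of absorbed energy in gray (Gy). The labels name no transgene or mutation in any group, each group had 60 embryos drawn from mixed wild-type clutches, and the 15 Gy pools are titled biological replicates. Whether they were irradiated separately was not stated, so p-values measure the spread between these pools.

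The number of arrays limited the precision of every comparison, as 2 of the 3 groups rested on a single array. An exact permutation test of the control array against 3 arrays could not give a p below 0.25. The limma model over all probe sets took its spread from the 15 Gy arrays. Values are log2 intensities, on which a difference of 1 is a 2-fold change, and differences carry the standard error (SE) of that model. No member passed at a Benjamini-Hochberg adjusted p of 0.05 in any comparison, so the differences below are sizes and positions of arrays rather than calls. The control array also had the lowest ratio of the 5′ to the 3′ probe set of a muscle actin control, a sign of RNA quality. It stood at 0.0171 without irradiation, 0.0354 after 12 Gy and 0.129, 0.0350 and 0.108 after 15 Gy. The ratio of a second control, GAPDH, varied less. It was 0.174 without irradiation, 0.177 after 12 Gy and 0.242, 0.189 and 0.228 after 15 Gy. Unlike the actin ratio, it put the 12 Gy array below replicate 2. In 42 of the 63 members (66.7%) the 15 Gy arrays stood in the order of both ratios, as in 30.5% of named genes. That order was replicate 1 highest, then 3, then 2. The part of RNA quality in the results was not tested.

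Of the heat-inducible members, 4 of 5 stood at least 2-fold above the control array in every 15 Gy array. This held for 1 of 23 constitutive members and 5.09% of named genes. At 12 Gy the counts were 4 and 2, against 6.41% of named genes. Both lists were chosen with earlier results of these data known. Of 10 genes listed as inducible 5 had a probe set of their own, namely hsp70.3, hsp90aa1.2, hspb1, dnajb1a and dnajb1b. Their median difference from the control array was 2.74 at 12 Gy and, by replicate, 3.25, 1.85 and 2.19 at 15 Gy. For the 23 measured genes of a list of 25 constitutive chaperones the medians were 0.17 at 12 Gy and, by replicate, 0.54, 0.20 and 0.46 at 15 Gy. Over all named genes the corresponding medians were 0.00, 0.03, 0.00 and 0.00. The 35 members in neither list had medians of 0.19 at 12 Gy and, by replicate, 0.56, 0.20 and 0.41 at 15 Gy. Of these, 0 stood at least 2-fold above the control in every 15 Gy array and 6 (17.1%) at 12 Gy. The inducible list thus had the largest median in each of the 4 irradiated arrays, all set against the same control array. The lists also differed in intensity, with a median control level of 5.86 for inducible and 9.48 for constitutive members. The part of intensity in this contrast was not tested.

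The inducible HSP70 gene hsp70.3 encodes a cytosolic HSP70 that is scarce in unstressed cells. Its log2 intensity was 4.72 without irradiation, 10.42 after 12 Gy and 10.91, 9.17 and 9.93 after 15 Gy. The single control array was low and lay below every irradiated array, as in 35.8% of named genes. The 12 Gy array lay within the 15 Gy range. At 15 Gy the gene was 38.9-fold higher than in the control (SD of the replicates 0.87, n = 3), with a log2 difference of 5.28 (SE 0.80, limma adjusted p = 0.167). Among the 8793 named genes this was the difference of rank 3 at 15 Gy and of rank 2 at 12 Gy.

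The identity of this signal is uncertain, because zebrafish have near-identical hsp70 copies. In the RefSeq gene order of assembly GRCz12tu, hsp70.1, hsp70.2 and hsp70.3 follow each other with 0 coding genes between them, and hsp70l lies elsewhere. The hsp70.3 probe set carries the array maker's suffix for probes that can also match other transcripts. A further probe set, assigned to hsp70.1, hsp70l and hsp70.3 together and therefore no member, had 3.95 without irradiation, 9.76 after 12 Gy and 10.49, 8.61 and 9.40 after 15 Gy. It was 46.9-fold higher at 15 Gy and ordered the arrays as the hsp70.3 probe set did. Its control value lay below the lower quartile of that array, 4.70, and that of hsp70.3 just above it. Detection calls were not used, so both folds are those of the measured intensities and may understate the difference. The signal was thus high in both probe sets, but which copies contributed cannot be told apart here, and the identity of their sequences was not analysed.

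The small heat shock protein gene hspb1, whose product keeps unfolded proteins from aggregating and binds actin filaments, had 6.57 without irradiation, 9.31 after 12 Gy and 9.82, 8.42 and 9.04 after 15 Gy. It was 5.76-fold higher after 15 Gy than in control larvae (log2 2.53, SE 0.65, limma adjusted p = 0.171). The J protein gene dnajb1b, whose product delivers clients to HSP70 and stimulates its ATPase, had 5.86 without irradiation, 8.69 after 12 Gy and 9.41, 7.76 and 8.05 after 15 Gy. That was 5.83-fold higher at 15 Gy (log2 2.54, SE 0.81, limma adjusted p = 0.188). For both genes the control array lay below every irradiated array by more than 1 on the log2 scale. The paralog dnajb1a behaved otherwise, with 4.83 without irradiation, 4.96 after 12 Gy and 5.43, 5.01 and 5.01 after 15 Gy. It was dim, below the median of every array, and its difference at 15 Gy was 0.32 (SE 0.23).

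**Figure D1:**
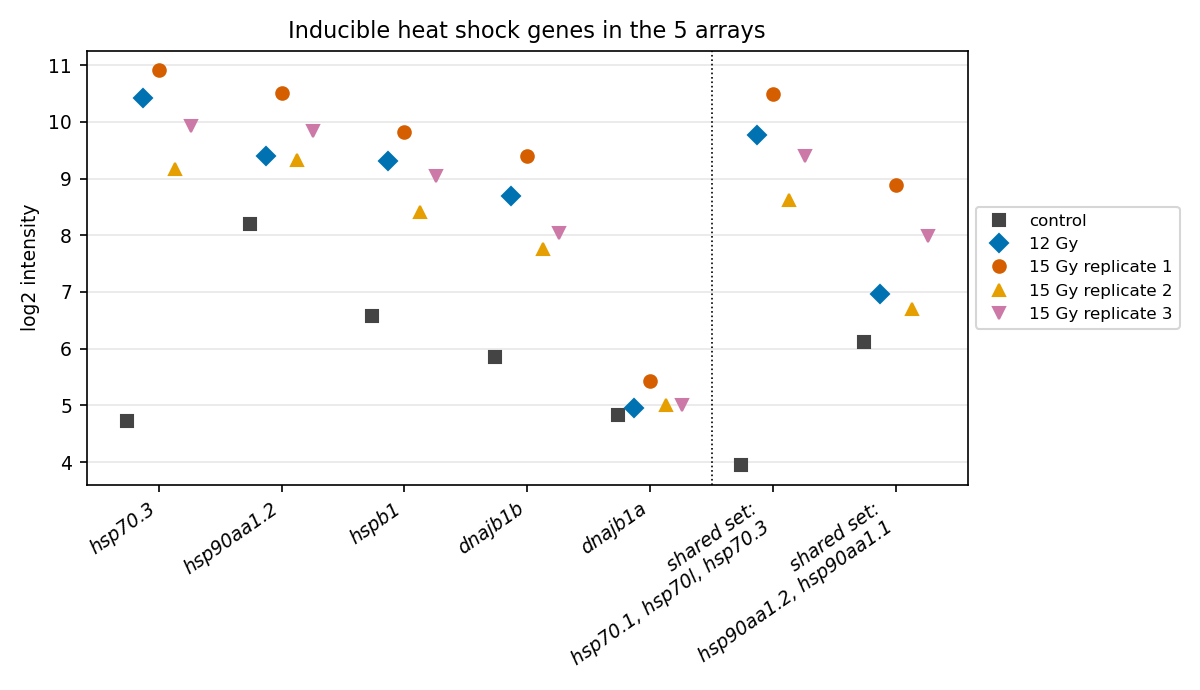
Log2 intensity (y axis) of the 5 inducible members and of 2 probe sets shared by several gene symbols (right of the dotted line). Each point is 1 array: the control array is lowest for each probe set shown, and the 12 Gy array of hsp70.3, at 10.42, lies above 15 Gy replicates 2 and 3.

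Within the HSP90 family the inducible and constitutive genes separated. The constitutive gene hsp90ab1, which encodes the abundant cytosolic HSP90 beta, had 12.52 without irradiation, 12.48 after 12 Gy and 12.48, 12.52 and 12.56 after 15 Gy. The inducible gene hsp90aa1.2 had 8.19 without irradiation, 9.41 after 12 Gy and 10.51, 9.32 and 9.84 after 15 Gy. It was 3.24-fold higher at 15 Gy (log2 1.70, SE 0.54, limma adjusted p = 0.188), against a difference of 0.01 (SE 0.08) for hsp90ab1. All irradiated arrays of hsp90aa1.2 lay above the control, whereas those of hsp90ab1 lay on both sides of it. The neighbouring gene hsp90aa1.1, known in zebrafish for its role in folding muscle myosin, had 7.28 without irradiation, 8.32 after 12 Gy and 9.56, 7.68 and 8.98 after 15 Gy. Its replicates at 15 Gy spread over 1.88, more than its mean difference of 1.46 (SE 0.88). A probe set assigned to both hsp90aa1 genes was 3.33-fold higher at 15 Gy, so these adjacent copies are not fully separated on the array.

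The HSP70 family held 8 members, and 7 of them, hspa8 included, lay above the control in each irradiated array, as did 35.8% of named genes. The cytosolic gene hspa8, which encodes the major constitutive HSP70, had 12.76 without irradiation, 12.87 after 12 Gy and 12.87, 12.84 and 12.88 after 15 Gy. Its difference at 15 Gy was 0.11 (SE 0.07), the smallest among the 7. Both hspa8 and hsp90ab1 lay on the other side of the control after cyclic loess (−0.16 and −0.25) and after a further quantile normalization (−0.07 and −0.06), so no direction is given for either. Each was among the 119 named genes with a mean log2 intensity of at least 12, of which 2 (1.68%) were at least 2-fold higher than the control in every 15 Gy array. For these 119 genes the median difference was 0.22, and the highest value on any array was 14.56.

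A different picture came from hsc70 and hspa8b, which were listed as constitutive because their names mark them as cognate HSP70 genes. For hsc70 the log2 intensities were 8.74 without irradiation, 9.87 after 12 Gy and 10.56, 9.84 and 10.20 after 15 Gy. It was 2.76-fold higher at 15 Gy (log2 1.46, SE 0.34, limma adjusted p = 0.168). Its dimmer probe set differed by 0.56 at 15 Gy and 0.15 at 12 Gy. The brighter hsc70 probe set ordered all 5 arrays as the actin 5′ to 3′ ratio did, as in 15.9% of members and 6.37% of named genes. For hspa8b the values were 5.18 without irradiation, 6.86 after 12 Gy and 7.20, 6.10 and 6.42 after 15 Gy, a 2.62-fold difference (log2 1.39, SE 0.52). These genes, with hspa4a, had the largest differences of the constitutive list, whose median without hsc70 and hspa8b was 0.38.

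The remaining HSP70 members differed less or varied more. The mitochondrial gene hspa9, whose product pulls imported proteins into the matrix, had a difference of 0.54 (SE 0.22), and the ribosome-associated hspa14 had 0.79 (SE 0.17). The gene hspa1b, an HSP70 gene by its name, had 5.78 without irradiation, 6.40 after 12 Gy and 7.74, 6.03 and 6.38 after 15 Gy. Replicate 1 stood apart, and replicates 2 and 3 lay below the 12 Gy array. The distant family member hspa12a had a difference of −0.26 (SE 0.11).

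HSP110 proteins exchange the nucleotide of HSP70, and the 3 family members went opposite ways. The gene hspa4a had 7.11 without irradiation, 7.89 after 12 Gy and 8.80, 8.03 and 8.37 after 15 Gy, and was 2.45-fold higher at 15 Gy (log2 1.29, SE 0.36). For hspa4b the difference was 0.61 (SE 0.17). The gene hspa4l instead had 8.38 without irradiation, 6.79 after 12 Gy and 5.57, 7.04 and 6.50 after 15 Gy. It was 4.02-fold lower at 15 Gy (log2 −2.01, SE 0.68, limma adjusted p = 0.196), and was the 1 member at least 2-fold below the control in each 15 Gy array, a position that 2.49% of named genes shared.

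Markers of neurons moved with hspa4l. All 10 measured of 12 listed neuron and synapse markers lay below the control in each irradiated array, as did 32.7% of named genes, with a summed intensity of 15725 without irradiation, 6035 after 12 Gy and 2185 to 7033 at 15 Gy. Their median difference was −1.64 at 12 Gy and, by replicate, −3.18, −1.28 and −1.67 at 15 Gy, beside −1.59, −2.81, −1.34 and −1.88 for hspa4l. The lowest marker value in any array was 5.92, and detection calls were not used. In RNA of whole larvae, fewer cells of a type and less RNA per cell cannot be told apart. All 7 measured photoreceptor markers also lay below the control in each irradiated array, against the same 32.7% of named genes. Their median difference was −3.14 at 12 Gy and, by replicate, −5.26, −1.53 and −2.08 at 15 Gy. The part of neurons or photoreceptors in the hspa4l result was not tested.

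**Figure D2:**
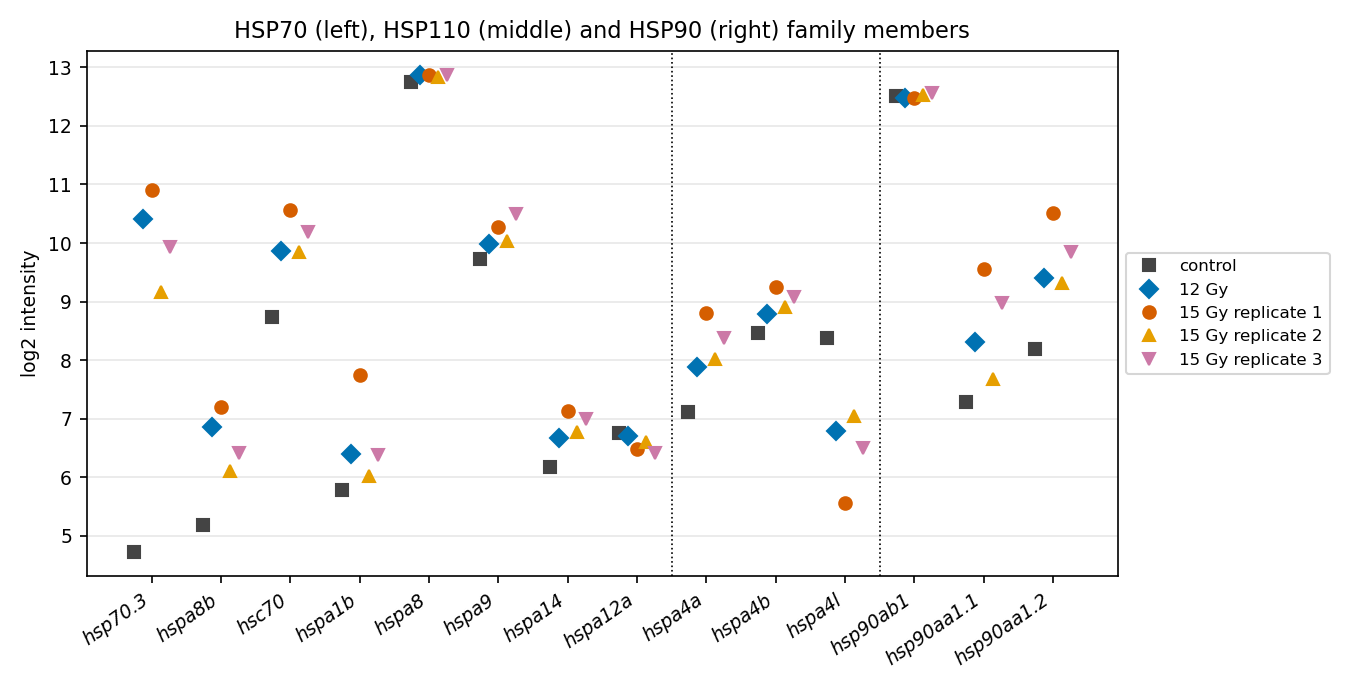
Log2 intensity (y axis) of the HSP70, HSP110 and HSP90 family members, separated by dotted lines, with 1 point per array. The arrays of hspa8 and hsp90ab1 coincide near 12.8 and 12.5, those of hsp70.3 and hsp90aa1.2 spread upward from the control, and hspa4l has the control on top.

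The other small heat shock protein genes among the members also lay above the control in each irradiated array, as did 35.8% of named genes. The gene hspb8, whose product works with a BAG protein in clearing damaged proteins from muscle, had 6.42 without irradiation, 7.94 after 12 Gy and 8.81, 7.32 and 8.08 after 15 Gy. That was 3.12-fold higher at 15 Gy (log2 1.64, SE 0.68). The muscle-rich gene hspb6 had 6.03 without irradiation, 7.31 after 12 Gy and 7.76, 6.31 and 7.08 after 15 Gy, with a difference of 1.02 (SE 0.66). For all 3 members of the group the 12 Gy array was at least 2-fold above the control, as in 6.41% of named genes. It lay within the 15 Gy range. The related crystallin genes cryaa and cryaba, no members by their symbols, differed by 0.05 and −0.23 at 15 Gy.

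The myosin chaperone gene unc45b had 6.68 without irradiation, 8.01 after 12 Gy and 8.28, 7.34 and 7.69 after 15 Gy, a 2.13-fold difference (log2 1.09, SE 0.44). Fast muscle markers moved in the same direction, with 10 of 12 measured markers of 16 listed above the control in each irradiated array, against 35.8% of named genes. Their summed intensity was 67350 without irradiation, 98576 after 12 Gy and 81700 to 101519 at 15 Gy. Their lowest value was 6.61, and their median difference was 0.68 at 12 Gy and 0.64 at 15 Gy. The part of muscle in the values of unc45b, hspb6, hspb8 and hsp90aa1.1 was not tested.

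Chaperonin genes lay above the control at 15 Gy by small and similar amounts. The CCT complex is the cytosolic ring that folds actin and tubulin, and 7 of its subunit genes were members. Each lay above the control in every 15 Gy array, with differences from 0.22 for cct2 to 0.55 for cct4 (SE 0.18) and a median of 0.38. The position was shared by 41% of all named genes. These sizes depended on the scaling: they ran from 0.01 for cct2 to 0.35 for cct4 after cyclic loess, and from 0.10 to 0.43 for the same genes after a further quantile normalization. The alpha subunit gene tcp1, no member by its symbol, differed by 0.22 (SE 0.11) at 15 Gy and by −0.12 at 12 Gy. The subunit gene cct5 had 10.51 without irradiation, 10.49 after 12 Gy and 11.10, 10.71 and 10.97 after 15 Gy, and cct7 had 9.48, 9.35 and then 10.05, 9.61 and 9.99 in the same order. In both, the 12 Gy array lay beside or below the control while every 15 Gy array lay above both. In the other 5 subunit genes the 12 Gy array lay above the control, from 0.08 for cct6a to 0.38 for cct2 and 0.40 for cct4. For cct2 the 12 Gy array was the highest of all arrays.

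The mitochondrial chaperonin pair hspd1 and hspe1, which encode the ring and its lid and are neighbours in the genome, also lay above the control in every 15 Gy array. The gene hspe1 had 8.93 without irradiation, 8.96 after 12 Gy and 9.82, 9.27 and 9.74 after 15 Gy. For hspd1 the values were 9.24 without irradiation, 9.41 after 12 Gy and 9.85, 9.60 and 9.77 after 15 Gy. At 15 Gy hspe1 was 1.60-fold higher than in the control (log2 0.68, SE 0.28) and hspd1 1.42-fold higher (log2 0.50, SE 0.14, limma adjusted p = 0.174). All 15 Gy arrays of both genes lay above the 12 Gy array, which differed from the control by 0.02 for hspe1 and 0.18 for hspd1.

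J proteins recruit HSP70 to particular tasks, and their genes spread over both directions. Of the 5 class A genes, dnaja2a (0.51, SE 0.11) and dnaja1 (0.44, SE 0.11) lay above the control in each 15 Gy array, and dnaja2b (−0.62, SE 0.12, limma adjusted p = 0.167) lay below it. These positions were held by 41% and 36.5% of named genes. The paralogs dnaja2a and dnaja2b, both of which serve cytosolic HSP70, thus differed in direction. The 15 Gy arrays ranged from 10.02 to 10.22 for dnaja2a, against 9.62 in the control array, and from 8.86 to 9.08 for dnaja2b, against 9.60. The mitochondrial genes dnaja3a (0.18, SE 0.20) and dnaja3b (−0.02, SE 0.11) had 15 Gy arrays on both sides of the control or tied with it.

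Among the 6 class B genes, dnajb6b had 6.84 without irradiation, 7.21 after 12 Gy and 8.40, 7.52 and 7.82 after 15 Gy, a difference of 1.07 (SE 0.41). The gene dnajb12a differed by 0.27 (SE 0.14), and dnajb11 by 0.37 (SE 0.20). The product of dnajb6b, like that of dnajb6a, suppresses the aggregation of other proteins. The direction of dnajb6a could not be given, because its probe sets disagreed. The brighter set had 6.65, 7.07 and 6.99 at 15 Gy, against 7.80 in the control array (−0.90, SE 0.21). The dimmer set had 6.87, 6.48 and 6.76 at 15 Gy, against 5.97 in the control array (0.74). Both sets separated the control from all 15 Gy arrays, but on opposite sides. Of the other 7 genes with 2 probe sets, 5 agreed in sign, and cct2 and hsp90ab1 did not, with dim second sets near 5.5 and 3.8 that differed by −0.01 and −0.08.

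**Figure D3:**
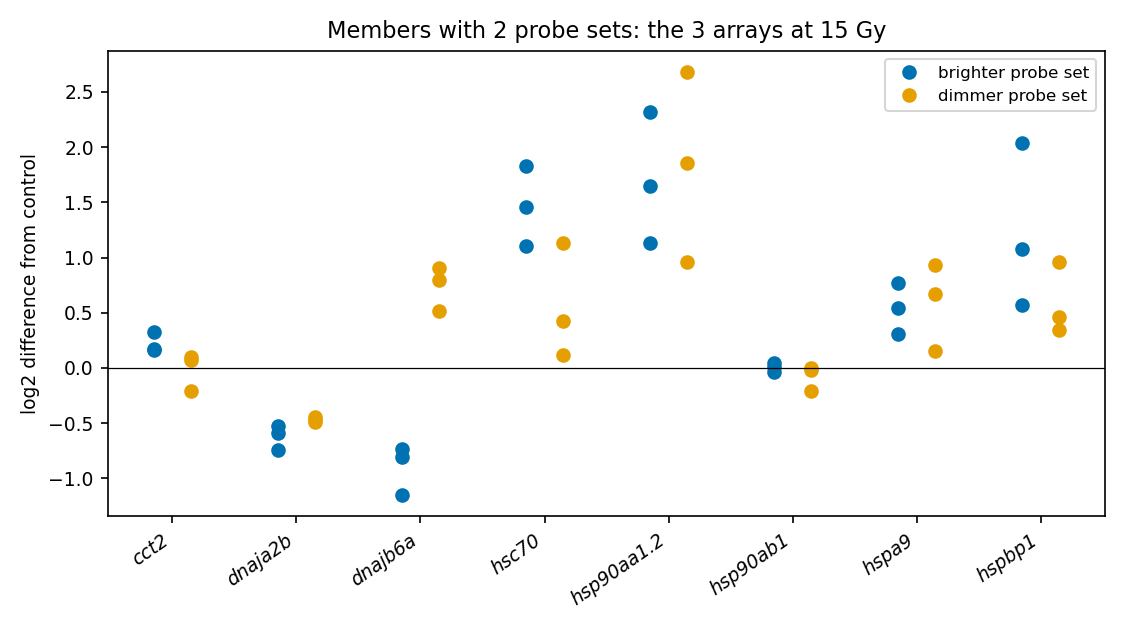
Log2 difference from the control array (y axis) of the 3 arrays at 15 Gy, for the brighter and the dimmer probe set of the 8 members that have 2. The sets of hsp90aa1.2, hsc70, hspa9 and hspbp1 lie on the same side of 0, and those of dnajb6a on opposite sides.

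The 17 class C genes had a median difference of 0.24 at 15 Gy, and 9 of them (52.9%) lay above and 4 (23.5%) below the control in every 15 Gy array, against 41% and 36.5% of named genes. The largest was dnajc10 (1.03, SE 0.32), which encodes a disulphide reductase of the endoplasmic reticulum. It was followed by dnajc19 (0.85, SE 0.37), dnajc3a (0.67, SE 0.27) and dnajc11a (0.64, SE 0.18), of which dnajc19 and dnajc11a act in mitochondria. The endoplasmic reticulum gene dnajc3b was tight, with 5.79 without irradiation, 5.88 after 12 Gy and 6.35, 6.34 and 6.29 after 15 Gy (0.54, SE 0.07, limma adjusted p = 0.167). The lowest was dnajc18, with 7.69 without irradiation, 7.03 after 12 Gy and 7.14, 7.18 and 7.16 after 15 Gy (−0.53, SE 0.07, limma adjusted p = 0.167). Also below it in each 15 Gy array, by less, were dnajc30b (−0.20), dnajc9 (−0.12) and dnajc5ga (−0.02). The other 8 genes ranged from −0.08 for dnajc7 to 0.63 for dnajc12.

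Co-chaperones guide HSP70 and HSP90 through their cycles. The exchange factor gene hspbp1 had 5.23 without irradiation, 6.47 after 12 Gy and 7.27, 5.80 and 6.31 after 15 Gy, a 2.35-fold difference (log2 1.23, SE 0.68). Its dimmer probe set differed by 0.59. The genes of the HSP90 ATPase activator, ahsa1a (0.69, SE 0.33) and ahsa1b (0.44, SE 0.27), and bag6 (0.51, SE 0.17) also lay above the control in each 15 Gy array. The gene st13, whose product stabilises HSP70 bound to its client, lay below, with 8.27 without irradiation, 7.60 after 12 Gy and 7.63, 7.79 and 7.83 after 15 Gy (−0.52, SE 0.12, limma adjusted p = 0.168). The exchange factor gene bag4 had 6.52 in the control array, 6.01 at 12 Gy and 6.55 to 6.81 at 15 Gy, and bag5 differed by −0.18 (SE 0.26) at 15 Gy. The related gene bag2 stood apart at 12 Gy, with 5.56 in the control array, 6.87 at that dose and 5.57 to 6.00 at 15 Gy.

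**Figure D4:**
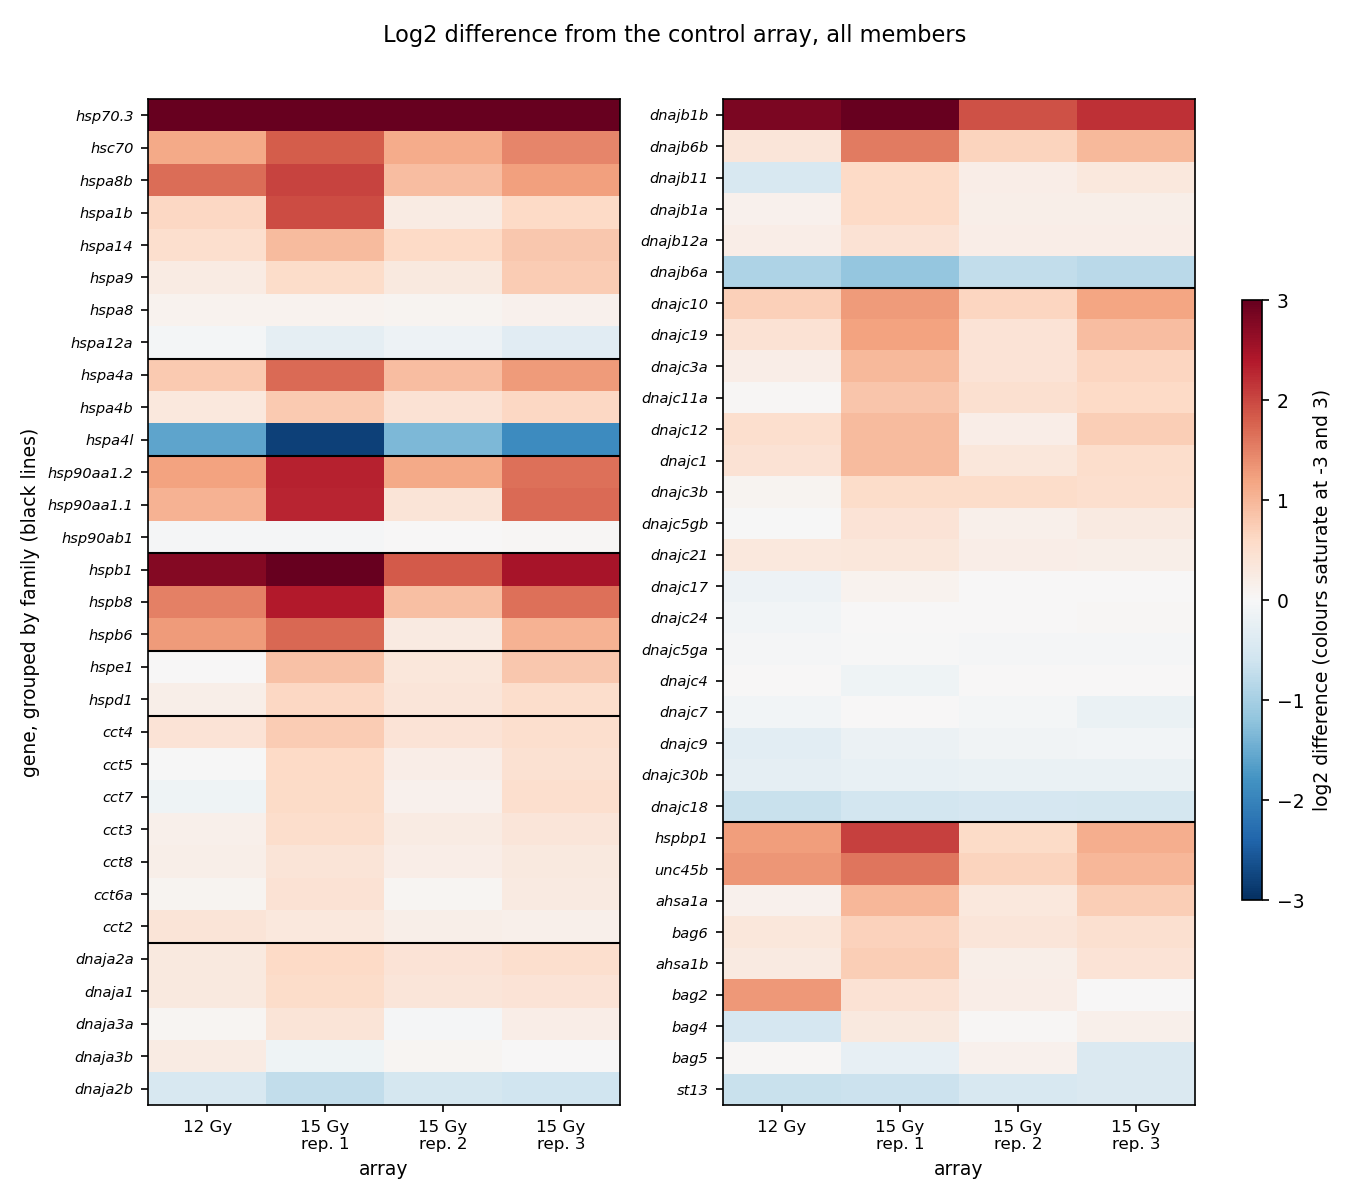
Log2 difference from the control array for the 63 members (rows, by family) in each irradiated array (columns), in red where higher and blue where lower, with colours saturated beyond 3 either way. Strong red is concentrated in hsp70.3, hspb1 and dnajb1b, hspa4l is the darkest blue row, and the column of 15 Gy replicate 1 is the most intense.

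Over all members, 46 of 63 (73%) lay above the control in each 15 Gy array, against 41% of named genes, and 9 lay below, against 36.5%. In all 4 irradiated arrays 41 members lay above the control, against 35.8% of named genes. At least 2-fold higher in each 15 Gy array were 5 members (hsp70.3, hspb1, dnajb1b, hsp90aa1.2 and hsc70), which is 7.94% against 5.09% of named genes. Without 15 Gy replicate 2 that count was 13. Replicate 2 was the lowest of the 15 Gy arrays in 46 members and in 42.4% of named genes. Leaving out an array loosens the rule for every gene, and the share of named genes in that setting was not counted. With the median over the probe sets of a gene or after cyclic loess the count of members was 4. At an unadjusted limma p of 0.05, 14 members were higher and 4 lower at 15 Gy, against 17.4% and 10.4% of named genes, so the shares of 22.2% and 6.35% lay near the background. The adjusted p of the members ran from 0.167 to 0.976, with 0 of 15502 probe sets past the threshold and 4062 (26.2%) at an unadjusted p of 0.05.

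At 12 Gy, 44 members lay above the control and 18 below, against 48.4% and 49.3% of named genes. At least 2-fold higher were 12 members, 19% against 6.41% of named genes, and hspa4l was at least 2-fold lower, a position of 4.53% of named genes. Of these 12, 4 were inducible (hsp70.3, dnajb1b, hspb1 and hsp90aa1.2) and 2 constitutive (hsc70 and hspa8b). The others were hspb8, hspb6, unc45b, bag2, hspbp1 and hsp90aa1.1. At an unadjusted limma p of 0.05, 3 members were higher and 5 lower, against 10.4% and 7.94% of named genes. No member passed (limma adjusted p from 0.206), and 0 of 15502 probe sets did, with 2644 (17.1%) at an unadjusted p of 0.05.

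The comparison of 15 Gy with 12 Gy does not use the control array. The 15 Gy mean lay above the 12 Gy array in 46 of 63 members and in 4790 of 8793 named genes. In 29 members (46%) every 15 Gy array did so, against 31.3% of named genes. Every 15 Gy array lay below the 12 Gy array in 5, against 21.1%. At an unadjusted limma p of 0.05, 4 members were higher and 1 lower, against 5.35% and 3.51% of named genes. Chaperonins were mostly among the higher ones, with 8 of 9 genes above the 12 Gy array by mean and 6 in every array. The log2 differences were 0.65 (SE 0.28) for hspe1, 0.54 (SE 0.23) for cct7 and 0.44 (SE 0.19) for cct5, and −0.16 (SE 0.11) for cct2. The inducible genes lay on both sides, with dnajb1a (0.19, SE 0.23) above the 12 Gy array in every 15 Gy array. Relative to 12 Gy, the differences were −0.41 (SE 0.80) for hsp70.3, −0.29 (SE 0.81) for dnajb1b and −0.22 (SE 0.65) for hspb1, and 0.48 (SE 0.54) for hsp90aa1.2. Each of these 4 SEs exceeded the difference, and without 15 Gy replicate 2 hsp70.3, dnajb1b and hspb1 differed by 0.00, 0.03 and 0.12 instead. The largest differences either way were dnajb11 (0.85, SE 0.20) and bag2 (−1.09, SE 0.21), both with a limma adjusted p of 0.52. The dnajb11 arrays at 15 Gy, from 7.66 to 8.05, all lay above the 12 Gy array at 6.97. Of 15502 probe sets 1 (0.00645%) passed, which was no member, and 1383 (8.92%) had an unadjusted p below 0.05.

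**Figure D5:**
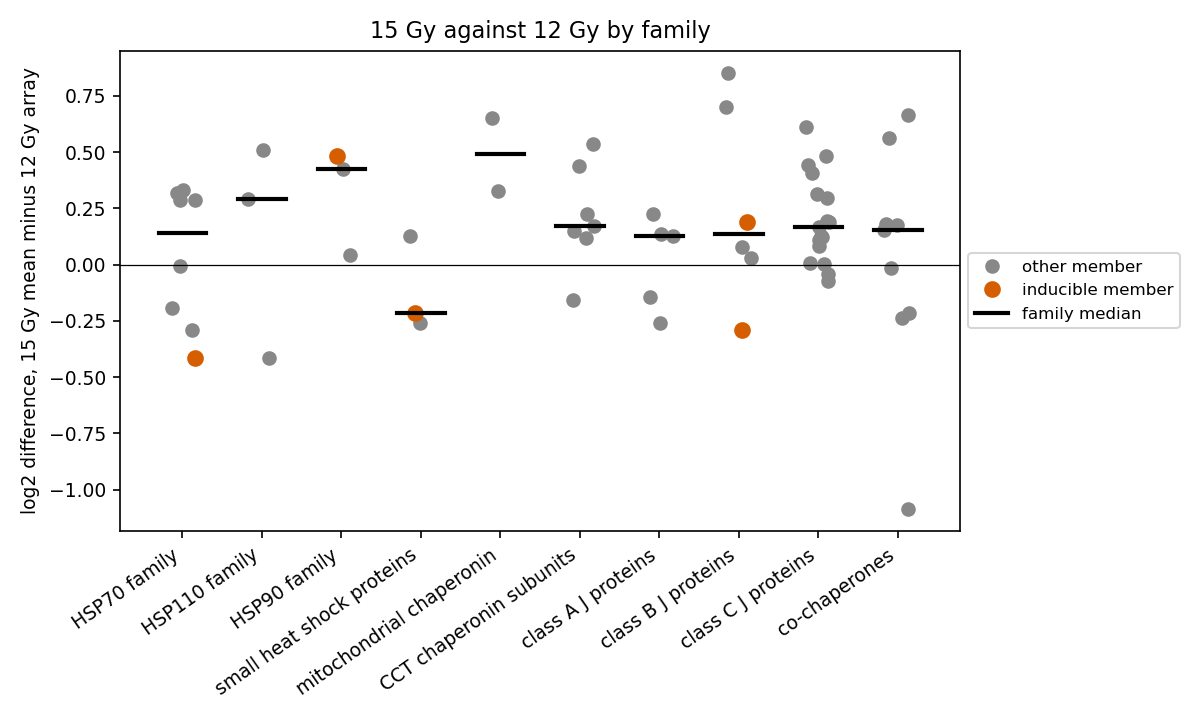
Log2 difference of the 15 Gy mean minus the 12 Gy array (y axis) for each member, by family, with inducible members in orange and family medians as black bars. The mitochondrial chaperonin genes, at 0.33 and 0.65, lie above 0, and hsp70.3 and dnajb1b lie below it at −0.41 and −0.29.

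Other genes of the chaperone network came from lists of 50 cytosolic and 15 mitochondrial genes that are no members, of which 34 and 9 were measured. In the cytosolic list, 22 lay above and 5 below the control in each 15 Gy array, against 41% and 36.5% of named genes, with a median of 0.22, and 0 passed. The largest differences were in serpinh1b (2.69, SE 0.47), a heat shock gene whose product is a collagen chaperone of the endoplasmic reticulum and so not cytosolic, in sqstm1 (1.79, SE 0.44), the autophagy receptor gene, and in the polyubiquitin gene ubb (1.53, SE 0.59). The prefoldin gene pfdn4, whose product hands clients to CCT, followed (0.95, SE 0.26). The values of serpinh1b were 5.50 without irradiation, 7.29 after 12 Gy and 8.70, 7.69 and 8.20 after 15 Gy. Its single control array lay below every irradiated array, as in 35.8% of named genes. The heat shock factor genes differed less at 15 Gy, with 0.22 (SE 0.15) for hsf1, −0.27 (SE 0.16) for hsf2 and −0.07 for the dim hsf5. At 12 Gy hsf2 instead lay above the control, by 0.43. Below the control at 15 Gy were also tsc1a (−0.26), cryaba (−0.23, dim) and ptges3a (−0.17). In the mitochondrial list, 5 of 9 (55.6%) lay above and 1 below, against the same shares, with a median of 0.18. It was led by the protease genes clpp (0.81, SE 0.34) and lonp1 (0.59, SE 0.28), then timm44 (0.37) and grpel1 (0.36), and grpel2 was lower (−0.21).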

How the data were processed

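The authors deposited an intensity for every probe set on each array, without a log scale. Per the submitters' processing notes RMA was used, which corrects background, normalizes to common quantiles and summarizes probes. Neither the software version nor the chip definition was stated in the labels. For dim probe sets RMA tends to understate large differences.

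Intensities were turned to log2 with no added constant, and 115 control probe sets were left out. Gene symbols were those of the platform's annotation, and no member's symbol needed updating. Tests used limma 3.58.1 in R 4.3.3, with a mean per group over 5 arrays (2 residual degrees of freedom, 1.20 from the prior), two-sided, with Benjamini-Hochberg adjustment over 15502 probe sets. The fit was tested on simulated data. Figures used matplotlib 3.10.9.

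Members, gene lists and naming rule were chosen with earlier results of these data known. Named were all inducible and constitutive members, of the others with all 15 Gy arrays on 1 side of the control the 8 largest increases and up to 8 decreases (7 found), members whose probe sets disagreed, up to 4 genes each way of each network list, hspa5 and hsp90b1; other members are named to account for each. The list of members of the endoplasmic reticulum was written after values were seen. Of 71 member probe sets, 11 had values tied to 8 decimals between arrays, 3 of them within 15 Gy, which lowers the spread.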

Additional observations from a re-analysis of the deposited data

Results flagged for a closer look

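In 5 members the 12 Gy array lay on the other side of the control array from every 15 Gy array, which happened in 7.94% of members and 9.04% of named genes. Relative to the 12 Gy array, the 15 Gy mean was higher by 0.85 in dnajb11, 0.66 in bag4, 0.54 in cct7, 0.44 in cct5 and 0.30 in dnajc5gb on the log2 scale. In each of them the 12 Gy array was below the control and the 15 Gy arrays above it. The difference between the doses was tested with limma and none passed (adjusted p from 0.52 to 0.628). The 12 Gy arrays of cct5 and dnajc5gb each differed from the control by −0.02.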

How the results depend on the processing

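Under the main setting and 11 alternatives, 0 member values passed the threshold, and of 1205 values of 58 named genes 23 changed sign. No paired analysis was possible because the groups share only replicate number 1. With the 12 Gy and 15 Gy arrays as 1 group, 6 probe sets passed against the control. At 12 Gy 4 passed after a further quantile normalization, 2 after cyclic loess, and 1 each after median centring and with a trended prior. None of these was a member. For 15 Gy against 12 Gy the 1 became 0 without the dimmest 30% of probe sets, with the median over probe sets of a gene, and without each 15 Gy replicate. Members at least 2-fold above the control numbered 5 to 13 when 1 replicate was left out, and the share of named genes in these settings was not counted. The constitutive median at 15 Gy was 0.20 after cyclic loess. Cyclic loess also gave −0.16 for hspa8 at 15 Gy and −0.084 at 12 Gy, −0.25 for hsp90ab1, 0.084 for dnaja3b, and at 12 Gy −0.042 for cct6a and −0.065 for hspe1. The further quantile normalization gave −0.070 and −0.029 for hspa8, −0.065 for hsp90ab1, 0.045 for dnaja3b, 0.028 for cct5 at 12 Gy, and against 12 Gy −0.014 for cct4 and −0.023 for cct8. Median centring gave −0.047 for hsp90ab1 and −0.020 for hspe1 at 12 Gy. With irradiated arrays as 1 group hsp90ab1 was −0.0056 and dnaja3b 0.045, and with the median over probe sets hsp90ab1 was −0.036. Leaving out 1 replicate gave −0.015 to 0.025 for hsp90ab1 and −0.062 to 0.032 for dnaja3b. Against 12 Gy it gave −0.87 to 0.0018 for hsp70.3, −0.79 to 0.033 for dnajb1b and −0.58 to 0.12 for hspb1. The causes were not tested. Detection calls were not used here, so how far dim members lay above background is unknown.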

Other observations

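The endoplasmic reticulum chaperone genes that the rule excepts also lay above the control in each irradiated array, as did 35.8% of named genes. The gene hspa5, which encodes the HSP70 of that compartment, had 8.17 without irradiation, 9.29 after 12 Gy and 10.28, 9.18 and 9.74 after 15 Gy. It was 2.96-fold higher after 15 Gy than in control larvae (log2 1.57, SE 0.51, limma adjusted p = 0.190). The HSP90 gene hsp90b1 had 7.87 without irradiation, 8.83 after 12 Gy and 9.76, 8.93 and 9.27 after 15 Gy, a 2.73-fold difference (log2 1.45, SE 0.39). The 5 members listed as J proteins of the endoplasmic reticulum lay above the control in each 15 Gy array, as did 41% of named genes. Their median difference was 0.61, with a range of 0.37 to 1.03. At 12 Gy, 4 of these 5 lay above the control, as did 48.4% of named genes. The gene dnajb11 lay below the control by 0.49 on the log2 scale. The list was written after values were seen and may leave out members of this compartment, so no direction is given for the compartment. At 15 Gy dnajc18 and dnajb12a, J protein genes outside the list, differed by −0.53 and 0.27, and their compartment was not assessed. Both hspa5 and hsp90b1 differed more from the control than the bright genes hspa8 and hsp90ab1, whose sign turned with the normalization. At 15 Gy the members ranged from −0.26 to 5.28 in the HSP70 family and from 0.01 to 1.70 in the HSP90 family. The excepted genes thus lay within the range of each family.

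Markers of other tissues also differed from the control array. Leukocyte markers lay above it in each 15 Gy array in 6 of 7 genes measured of 8, against 41% of named genes. Their summed intensities were 281 in the control array, 736 at 12 Gy and 669 to 1158 at 15 Gy. The log2 difference at 15 Gy was 3.14 for srgn, 1.29 for coro1a and 1.21 for lcp1, against 0.15 for mpx, 0.11 for spi1b and 0.00 for csf1ra, with a list median of 0.59. For epidermis 6 of 8 genes measured of 9 lay above the control in each 15 Gy array, against the same 41%. Their sums were 5653, 8060 and then 12450 to 19337. At 15 Gy krt15 differed by −0.61 and krt5 by 0.01. At 12 Gy 5 epidermis markers lay above the control, against 48.4% of named genes. The 3 below it, against 49.3%, were krt4 (−0.56), krt5 (−0.96) and krt15 (−0.95). All 7 photoreceptor markers measured of 10 lay below the control in each 15 Gy array, against 36.5% of named genes. Their sums were 32194 in the control array, 3104 at 12 Gy and 667 to 11002 at 15 Gy. For lens (3 of 8 measured) sums were 764, 811 and then 1509 to 3349, and for heart (3 of 5 measured) 114, 115 and then 161 to 320. Their part in the chaperone values was not tested.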
